A study of Homo sapiens with 8 samples.

Results

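Class 3 semaphorins, the neuropilins that receive them and the collapsin response mediator proteins (CRMPs) that act inside the responding cell were followed in BEAS-2B cells during and after exposure to nickel. The 10 genes were SEMA3A, SEMA3B, SEMA3C, SEMA3D, SEMA3E and SEMA3F (ligands), NRP1 and NRP2 (receptors), and DPYSL2 and DPYSL3 (CRMPs), taken by symbol from the 25411 genes listed for each library. SEMA3D and DPYSL3 had been chosen by their read counts and RPKM in these samples, so their levels and fold changes are given as a description with no P value. The other 8 were taken as added by family, but earlier results of these data were known when the list was made. Counts of how many of these 8 passed, set against all genes, are therefore a description. All 10 genes had reads, and the other 8 were tested in each of the 6 comparisons between groups.

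BEAS-2B is a human bronchial epithelial cell line made immortal by a viral gene, and RNA-Seq was carried out on 8 libraries in 4 groups of 2. Untreated cells (UT) were the control. Cells of the Ni-E group had received 100 µM NiCl2 over 6 weeks. Cells of the Ni-W group, with nickel washed out, had the same exposure and were then grown from a single cell in nickel-free medium for more than 6 months, 1 such population having been picked at random. The HCl3 libraries carried the treatment text of Ni-W, and neither their time without nickel nor their relation to Ni-W was given. UT and Ni-E had not passed through a single cell. The choice of a clone, the months of culture after exposure and the history of nickel therefore cannot be told apart in Ni-W. The same holds for HCl3 as far as the account of Ni-W applies to it. The labels give an experiment number to Ni-E (2) and to HCl3 (3 and 4) but none to UT and Ni-W, so experiment and group cannot be told apart either.

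Libraries held between 26383920 and 45692298 counted reads, and 3 reads, the smallest count treated as seen, made up between 6.57e-06 and 1.14e-05% of a library. Among epithelial markers, KRT8 and KRT18 were present while KRT19 and CDH1 had means under 1 RPKM (reads scaled to gene length and library size) in each group. The 5 epithelial markers summed to 337.6 to 368.7 RPKM in UT, 372.3 to 435.4 in Ni-E, 466.0 to 494.2 (Ni-W) and 522.3 to 557.6 (HCl3), and KRT19 went from 1 read over both UT libraries to 86 in Ni-W and 90 in HCl3. The 4 endothelial markers summed to 0.01 to 0.03 RPKM in UT, 0.04 to 0.05 in Ni-E, 0.11 in both Ni-W libraries and 0.06 to 0.12 in HCl3. The 4 neuronal markers summed to at most 0.16 RPKM in any library. The summed RPKM of the 3 mesenchymal markers ran from 1488 to 1599 in UT, 891.3 to 1051 in Ni-E, 966.4 to 1158 in Ni-W and 1702 to 1715 in HCl3, and most of it was VIM. FN1, another of the 3, moved otherwise, with means of 6.98 RPKM (UT), 5.39 (Ni-E), 82.43 (Ni-W) and 118.8 (HCl3), while CDH2 had 69.12, 55.80, 75.75 and 69.03. The part of these markers in the results was not tested. In such bulk RNA, fewer cells with a transcript and less of it per cell cannot be told apart.

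Class 3 semaphorins are secreted guidance proteins, first known for turning growing axons away and also active on endothelial and epithelial cells. Most bind a neuropilin, which pairs with a plexin to signal into the cell, whereas SEMA3E can bind the plexin PLXND1 without a neuropilin. Neuropilins also bind forms of VEGF, the growth factor for blood vessels. CRMPs bind tubulin and carry the semaphorin signal to the cytoskeleton. Several of these genes have been studied in the airway and in lung tumours.

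In UT cells the 10 genes spanned from 0.01 RPKM for SEMA3E to a mean of 13.02 RPKM for DPYSL2. The order of the means in UT was DPYSL2, SEMA3C, SEMA3F, NRP1, SEMA3B, SEMA3D, DPYSL3, NRP2, SEMA3A and SEMA3E. Only NRP1 with SEMA3B and SEMA3D with DPYSL3 overlapped among neighbours in that order. In Ni-E, SEMA3B moved up to a mean of 10.28 RPKM, next to DPYSL2 with overlapping libraries. In Ni-W, SEMA3E reached the level of SEMA3D and DPYSL3, with overlapping ranges for each neighbouring pair. In HCl3, NRP1 came next after DPYSL2 and SEMA3C, with both libraries above those of SEMA3F.

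**Figure D1:**
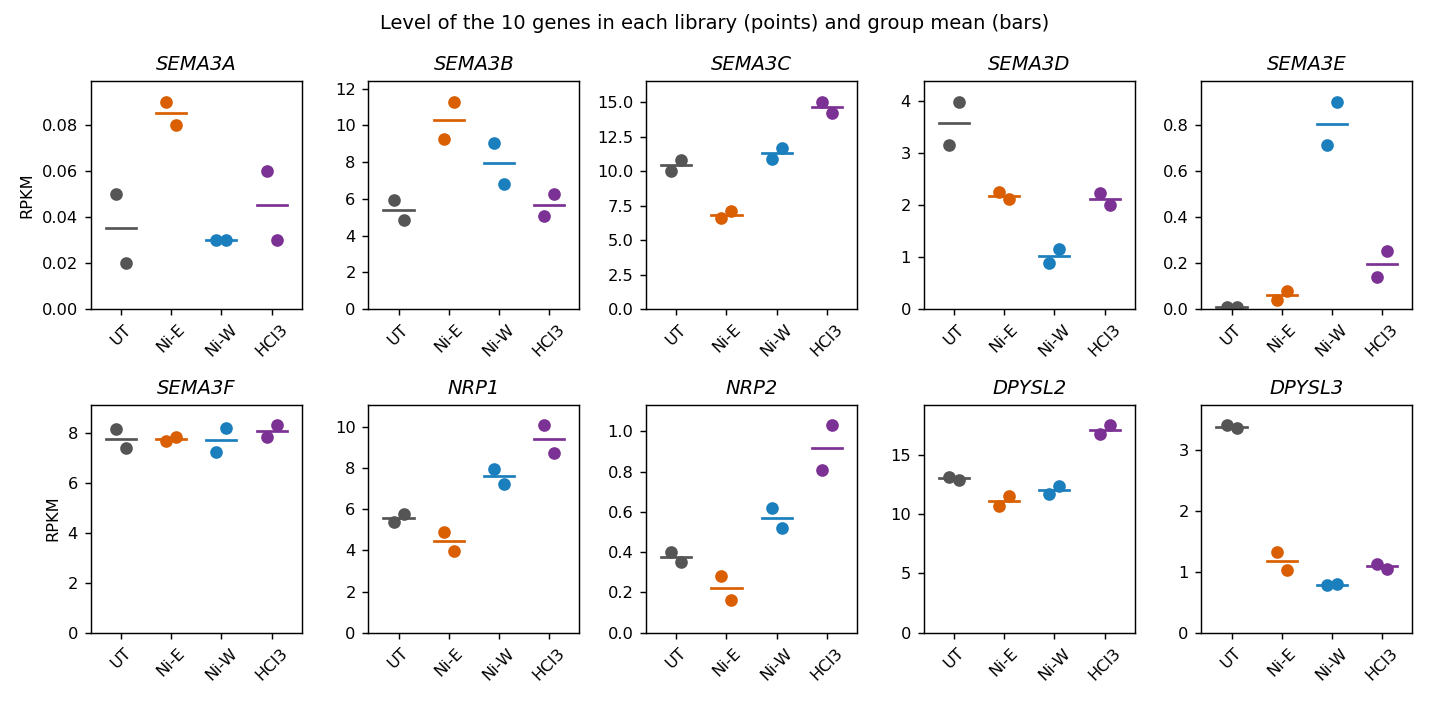
RPKM (y axis, a separate scale in each panel, starting at 0) of the 10 genes in each of the 8 libraries. Points are libraries and bars are means of the 2 libraries of UT, Ni-E, Ni-W and HCl3. SEMA3E is near 0 in UT and highest in Ni-W, DPYSL3 and SEMA3D are highest in UT, and SEMA3F stays between 7.26 and 8.32 RPKM.

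SEMA3E was the ligand with the widest range. It lies on chromosome 7 (hg19 82993222 to 83278479, minus strand) and encodes a ligand of PLXND1 that restrains vessel growth. It had 2 and 1 reads (UT), 8 and 20 (Ni-E), 240 and 206 (Ni-W) and 36 and 71 (HCl3). In RPKM these were 0.01 and 0.01, 0.04 and 0.08, 0.71 and 0.90, and 0.14 and 0.25. No pair of groups overlapped, and the order was UT, Ni-E, HCl3, Ni-W.

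With 3 reads in all of UT, the ratio of the normalised read counts was 120.6 in Ni-W over UT (95% counting interval 40.99 to 586.8) and 29.28 in HCl3 over UT (9.752 to 144.2). These intervals cover counting error only. The tests gave adjusted P = 3.62e-13 for Ni-W and 2.86e-05 for HCl3. In Ni-E the ratio of 8.387 (2.591 to 43.11) did not pass, with adjusted P = 0.146, though it did with all 8 libraries in one fit (adjusted P = 0.00991). Without HCl3 replicate 2 the HCl3 difference gave adjusted P = 0.0748.

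Among nickel-treated groups, SEMA3E was higher in Ni-W than in Ni-E by 3.86 ± 0.43 (log2 fold change ± SE, adjusted P = 1.24e-17) and lower in HCl3 than in Ni-W, at -2.07 ± 0.32 (adjusted P = 7.27e-09). These differences passed in each alternative that could be run. HCl3 against Ni-E gave 1.79 ± 0.66 (adjusted P = 0.0211), which did not pass without Ni-E replicate 1 (adjusted P = 0.234), without HCl3 replicate 1 (adjusted P = 0.130) or without HCl3 replicate 2 (adjusted P = 0.553). It also failed by limma on log2(RPKM + 1) (adjusted P = 0.122) and log2(RPKM + 0.1) (adjusted P = 0.0895), and it passed in 6 of 13 alternatives.

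The sequence before the listed start of SEMA3E is shown because this gene went from nearly no reads to a level among the other members. The 250 bases come from RefSeq on GRCh38.p14, chr7:83649140-83649389, minus strand. Here and in the sequences of other members, capitals mark ACGTG and GCGTG, cores of the hypoxia response element, and GGGCGG, the GC box, on either strand.
SEMA3E: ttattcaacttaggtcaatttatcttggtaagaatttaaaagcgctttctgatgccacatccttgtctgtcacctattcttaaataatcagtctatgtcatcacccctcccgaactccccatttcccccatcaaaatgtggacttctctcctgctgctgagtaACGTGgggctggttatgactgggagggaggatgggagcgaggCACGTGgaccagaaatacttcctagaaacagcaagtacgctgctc
This stretch held 3 matches to ACGTG, 2 of which are the opposite strands of a single CACGTG, and no match to GCGTG or GGGCGG. Over 35116 listed windows of the same length, 18.5% held ACGTG, 32.2% GCGTG and 42.6% GGGCGG. It held 6 CG dinucleotides, against a median of 11 over all windows. The window of the other listed start, chr7:83641432-83641681, held none of the 3 motifs. A match is a string of letters and not a measured site, and no binding was measured in these files.

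SEMA3D, another ligand of the same chromosome (hg19 84624872 to 84751247, minus strand), acts in the guidance of neural crest and vascular cells. Its RPKM was 3.16 and 3.99 (UT), 2.25 and 2.11 (Ni-E), 0.89 and 1.15 (Ni-W) and 2.23 and 2.01 (HCl3). Both UT libraries were above the other 6, and Ni-W was lowest, with no overlap. Log2 fold changes from UT were -0.77 ± 0.18 for Ni-E, -1.85 ± 0.19 for Ni-W and -0.81 ± 0.16 for HCl3. Ni-E and HCl3 overlapped, and HCl3 over Ni-E gave -0.05 ± 0.16.

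SEMA3D and SEMA3E thus moved in opposite directions from UT in Ni-W and in HCl3. After removal of trends with GC content and gene length, the SEMA3D log2 fold change in Ni-E was -0.56. The SEMA3D sequence, shown for comparison with that of SEMA3E, is chr7:85187057-85187306 on GRCh38.p14, minus strand.
SEMA3D: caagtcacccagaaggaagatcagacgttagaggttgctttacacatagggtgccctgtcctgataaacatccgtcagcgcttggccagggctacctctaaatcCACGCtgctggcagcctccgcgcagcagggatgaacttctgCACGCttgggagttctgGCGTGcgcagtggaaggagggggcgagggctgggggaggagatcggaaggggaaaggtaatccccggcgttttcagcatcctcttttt
It held 3 matches to GCGTG, none to ACGTG or GGGCGG, and 13 CG dinucleotides.

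SEMA3C and SEMA3B, which were among the more abundant ligands, moved apart in Ni-E. SEMA3C (chromosome 7, hg19 80371854 to 80548667, minus strand) guides cells of the outflow tract of the heart and promotes growth in several tumours. SEMA3C RPKM was 10.03 and 10.84 (UT), 6.59 and 7.11 (Ni-E), 10.91 and 11.71 (Ni-W) and 15.05 and 14.23 (HCl3). In RPKM the 4 groups did not overlap, with Ni-E lowest and HCl3 highest. In normalised read counts UT (2083 and 2263) and Ni-W (2206 and 2384) overlapped.

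SEMA3C fell in Ni-E against UT by 0.66 on the log2 scale (SE 0.13, adjusted P = 1.50e-05). It differed little between Ni-W and UT, at 0.08 ± 0.12 (95% interval -0.15 to 0.31). The HCl3 increase over UT, 0.43 ± 0.11 with adjusted P = 0.000345, was under 1.5-fold. SEMA3C was higher than in Ni-E by 0.73 ± 0.11 in Ni-W (adjusted P = 2.03e-09) and by 1.08 ± 0.10 in HCl3 (adjusted P = 6.04e-26). With the GC and length trends removed, the Ni-E change was -0.49 and that of Ni-W over Ni-E 0.50, both then under 1.5-fold.

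SEMA3B (chromosome 3, hg19 50310550 to 50314602, plus strand) is known as a candidate tumour suppressor of the lung. SEMA3B RPKM was 5.95 and 4.87 (UT), 9.27 and 11.29 (Ni-E), 9.06 and 6.81 (Ni-W) and 5.05 and 6.26 (HCl3). Ni-E was above the other groups, Ni-W lay between, and HCl3 overlapped UT. SEMA3B rose in Ni-E by 0.86 ± 0.17 (adjusted P = 1.97e-05), which did not pass without Ni-E replicate 2 (0.74, adjusted P = 0.0655).

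In Ni-W the SEMA3B difference from UT was 0.52 ± 0.18 (adjusted P = 0.0152), under 1.5-fold, and it passed at 0.67 without UT replicate 1 and at 0.71 without Ni-W replicate 2. HCl3 was lower than Ni-E in SEMA3B, at -0.88 ± 0.15 (adjusted P = 8.48e-08). Against Ni-W, SEMA3B in HCl3 gave -0.52 ± 0.16 (adjusted P = 0.0102), under 1.5-fold. That difference passed with GC and length trends removed (-0.74, adjusted P = 5.38e-06). The SEMA3B gene overlaps the microRNA gene MIR6872, which had 0 reads in all libraries.

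SEMA3F (chromosome 3, hg19 50192848 to 50226508, plus strand), a ligand that prefers NRP2, lies 0.1218 Mb from end to end with SEMA3B. Its RPKM was 8.17 and 7.42 (UT), 7.71 and 7.86 (Ni-E), 7.26 and 8.23 (Ni-W) and 7.86 and 8.32 (HCl3). The 4 groups overlapped. No comparison passed, and the 95% intervals of its log2 fold changes from UT were -0.34 to 0.22 in Ni-E, -0.33 to 0.23 in Ni-W and -0.26 to 0.25 in HCl3. Over the alternatives these changes ran from -0.23 to 0.01 in Ni-E, -0.26 to 0.05 in Ni-W and -0.36 to 0.07 in HCl3. None of them passed, though the lowest HCl3 value lay below the interval of the main fit.

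SEMA3A (chromosome 7, hg19 83587659 to 83824217, minus strand), the first collapsin and a ligand of NRP1, was close to the limit of detection. It had 11 and 4 reads (UT), 19 and 18 (Ni-E), 9 and 5 (Ni-W) and 15 and 8 (HCl3). Ni-E was highest, at 0.09 and 0.08 RPKM, while the other groups overlapped. The Ni-E change from UT was 1.20 ± 0.95 (adjusted P = 0.484), so a difference was not detectable at this depth.

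Summed over SEMA3A to SEMA3F, the ligands came to nearly the same level in each group while their make-up moved. The sum was 27.37 and 27.15 RPKM (UT), 25.95 and 28.53 (Ni-E), 28.86 and 28.83 (Ni-W) and 30.39 and 31.10 (HCl3). SEMA3B made up 21.74 and 17.94% of the sum in UT and 35.72 and 39.57% in Ni-E. SEMA3C went the other way, from 36.65 and 39.93% in UT to 25.39 and 24.92% in Ni-E, and reached 49.52 and 45.76% in HCl3. SEMA3D went from 11.55 and 14.70% of the sum in UT to 3.084 and 3.989% in Ni-W, where SEMA3E held 2.460 and 3.122%. These shares are a description with no test.

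**Figure D2:**
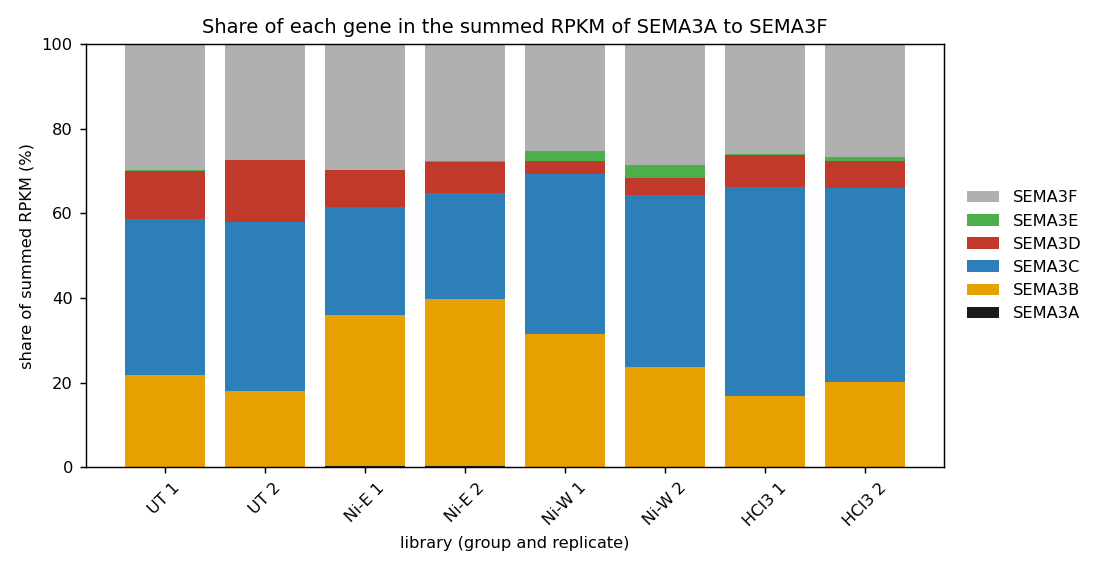
Share of each gene in the summed RPKM of SEMA3A to SEMA3F (y axis, percent) in each of the 8 libraries (x axis), as stacked bars that add to the whole. The SEMA3B share is widest in Ni-E at 35.72 and 39.57%, the SEMA3C share in HCl3 at 49.52 and 45.76%, and the SEMA3D share in UT.

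SEMA3C, SEMA3E, SEMA3A and SEMA3D follow each other on chromosome 7 within 4.379 Mb, and they did not move as a block. From SEMA3C to SEMA3D the log2 fold changes in Ni-W over UT were 0.08, 6.95, -0.36 and -1.85. In HCl3 they were 0.43, 4.87, 0.40 and -0.81. Of the 13 neighbours of SEMA3E within 5 Mb that passed a mean normalised read count of 50, all 13 changed less than SEMA3E in Ni-W over UT, with a median of -0.08.

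PCLO, a gene between SEMA3C and SEMA3E that encodes a protein of the presynaptic zone, was named after its values were seen. It had 195 and 182 reads (UT), 189 and 253 (Ni-E), 19 and 8 (Ni-W) and 1 and 1 (HCl3). Its reads were thus lowest in the groups in which SEMA3E was highest. The other listed semaphorin pair, SEMA3F and SEMA3B on chromosome 3, also differed, at -0.06 and 0.86 in Ni-E over UT.

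**Figure D3:**
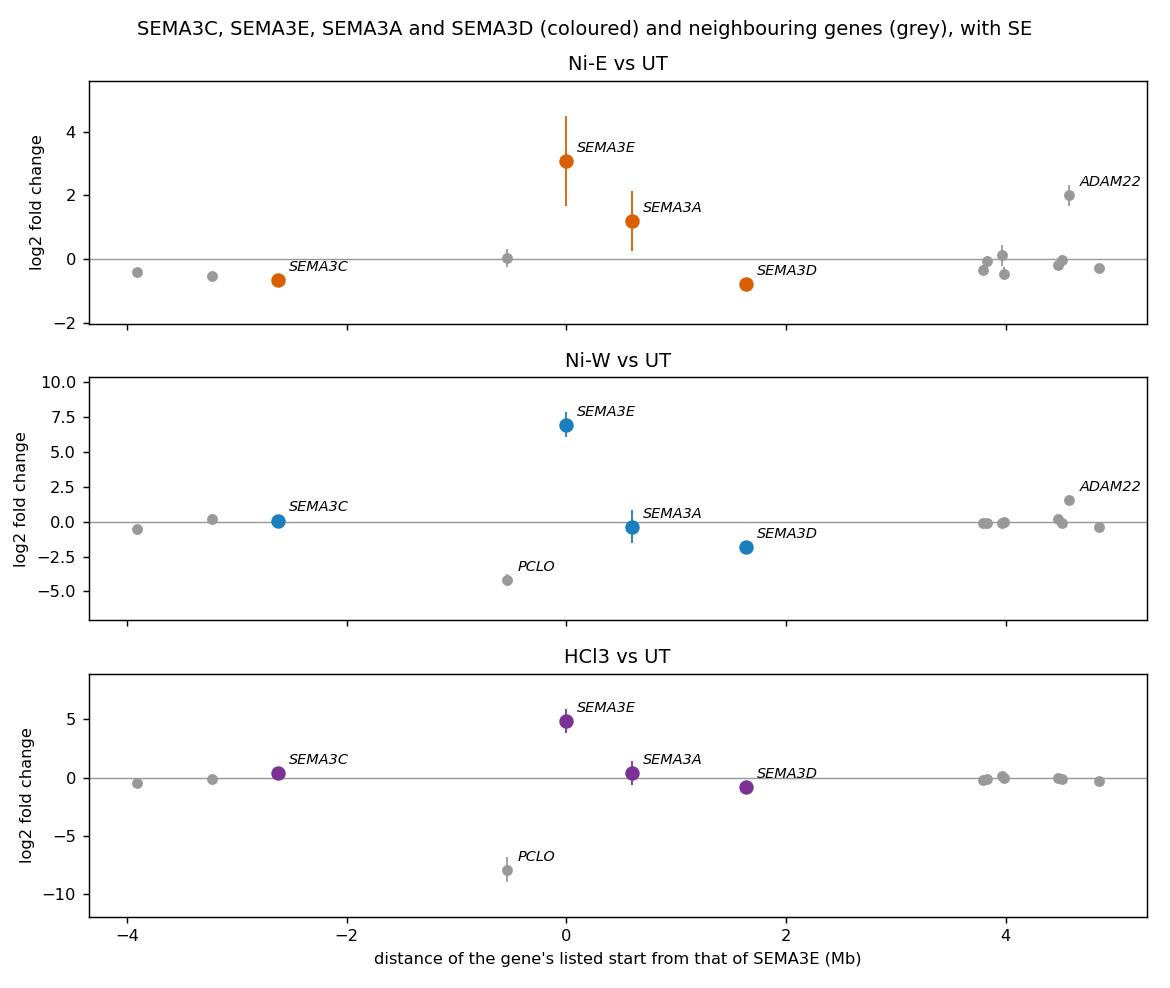
Log2 fold change from UT (y axis, one scale per panel) of SEMA3C, SEMA3E, SEMA3A and SEMA3D (coloured) and of neighbours with a mean normalised read count of at least 50 (grey) against distance from the listed start of SEMA3E in Mb (x axis), with SE as bars. SEMA3E rises to 6.95 in Ni-W and 4.87 in HCl3 while SEMA3C and SEMA3D stay between -1.85 and 0.43. The PCLO point in HCl3 rests on 1 read in each library.

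The neuropilins, the receptors of most of these ligands, were lowest in Ni-E and highest in HCl3. NRP1 (chromosome 10, hg19 33486547 to 33623833, minus strand) is the receptor of SEMA3A and also binds VEGF. It had normalised read counts of 1066 and 1141 (UT), 826.6 and 593.2 (Ni-E), 1395 and 1384 (Ni-W) and 1725 and 1606 (HCl3). The groups did not overlap, in the order Ni-E, UT, Ni-W, HCl3.

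NRP1 fell in Ni-E by 0.64 on the log2 scale (SE 0.18, adjusted P = 0.00476). This call was not kept without UT replicate 1 (adjusted P = 0.0681), UT replicate 2 (adjusted P = 0.189) or Ni-E replicate 2 (-0.43, adjusted P = 0.373), by limma on log2(RPKM + 1) (-0.28, adjusted P = 0.201), or with GC and length trends removed (-0.55, adjusted P = 0.00963, under 1.5-fold). NRP1 rose in HCl3 over UT by 0.59 ± 0.12 (adjusted P = 1.03e-05), just past 1.5-fold, and was under it without UT replicate 1 (0.55), without HCl3 replicate 1 (0.54) or with the GC and length trends removed (0.49).

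Against Ni-E the NRP1 differences were larger, at 0.96 ± 0.16 in Ni-W (adjusted P = 1.82e-08) and 1.22 ± 0.15 in HCl3 (adjusted P = 5.86e-15). Both passed in all 13 alternatives run on them. Ni-W over UT gave 0.34 ± 0.13 (adjusted P = 0.0332), under 1.5-fold.

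NRP2 (chromosome 2, hg19 206547224 to 206662857, plus strand), the receptor of SEMA3F and a co-receptor in lymphatic vessels, was far less abundant. It had 76 and 32 reads (UT), 39 and 26 (Ni-E), 131 and 71 (Ni-W) and 184 and 218 (HCl3). Its normalised read counts were 72.04 and 43.83, 39.85 and 26.05, 99.41 and 80.19, and 172.7 and 196.8 in the same order. The groups did not overlap, and Ni-E was again lowest and HCl3 highest.

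NRP2 rose in HCl3 over UT by 1.65 ± 0.33 (adjusted P = 6.57e-06), which did not pass without HCl3 replicate 2 (1.57, adjusted P = 0.0615). HCl3 was also higher than Ni-E by 2.48 ± 0.36 (adjusted P = 8.41e-11), in all 13 alternatives. Ni-W was higher than Ni-E by 1.44 ± 0.45 (adjusted P = 0.00462), but not without Ni-E replicate 2 (adjusted P = 0.116), Ni-W replicate 1 (adjusted P = 0.276) or Ni-W replicate 2 (adjusted P = 0.106). HCl3 was higher than Ni-W by 1.03 ± 0.27 (adjusted P = 0.00148), but not without Ni-W replicate 2 (adjusted P = 0.0889), HCl3 replicate 1 (adjusted P = 0.115) or HCl3 replicate 2 (adjusted P = 0.329). Ni-E against UT did not pass, at -0.83 ± 0.54 (adjusted P = 0.364), in the DESeq2 fit or in any of 14 alternatives. Ni-W against UT gave 0.62 (95% interval -0.18 to 1.43, adjusted P = 0.258).

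For both neuropilins the deposited RPKM did not follow the reads by a single gene length. The length implied by reads and RPKM varied 1.784 times between libraries for NRP2, from 3465 bases in UT replicate 2 to 6182 in HCl3 replicate 1, and 1.269 times for NRP1, from 4399 bases in Ni-E replicate 2 to 5581 in UT replicate 1. For the other 7 members with an RPKM of at least 0.1 in several libraries it varied at most 1.067 times. Each neuropilin had 6 listed transcripts, whose separate levels were not analysed here. The RPKM of NRP1 over that of NRP2 was 13.45 and 16.57 (UT), 17.57 and 24.75 (Ni-E), 12.89 and 13.94 (Ni-W) and 12.46 and 8.485 (HCl3).

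The sequence before the listed start of NRP2, the neuropilin with the larger change from UT in HCl3, is chr2:205682251-205682500 on GRCh38.p14, plus strand.
NRP2: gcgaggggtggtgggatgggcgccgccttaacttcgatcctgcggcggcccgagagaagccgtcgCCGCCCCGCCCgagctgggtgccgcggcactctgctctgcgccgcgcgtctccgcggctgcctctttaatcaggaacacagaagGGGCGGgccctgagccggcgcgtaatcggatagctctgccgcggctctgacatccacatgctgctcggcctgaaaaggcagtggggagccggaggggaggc
It held 3 matches to GGGCGG, of which a pair overlaps, no match to ACGTG or GCGTG, and 29 CG dinucleotides.

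The CRMPs were an abundant member, DPYSL2, and a scarcer one, DPYSL3, that was highest in UT. DPYSL2 (CRMP2, chromosome 8), which promotes microtubule assembly, had 13.12 and 12.91 RPKM (UT), 10.73 and 11.50 (Ni-E), 11.67 and 12.42 (Ni-W) and 16.76 and 17.49 (HCl3). HCl3 was above all other libraries and Ni-E below all, with no overlap of the 4 groups. DPYSL2 differed past the threshold only in HCl3 over Ni-E, at 0.61 ± 0.09 (adjusted P = 1.44e-09). That call ended without Ni-E replicate 1 (0.58), without HCl3 replicate 2 (0.58) and with GC and length trends removed (0.41), since the change was then under 1.5-fold. From UT it changed by -0.28 ± 0.12 in Ni-E (adjusted P = 0.111), -0.15 ± 0.11 in Ni-W (adjusted P = 0.363) and 0.34 ± 0.10 in HCl3 (adjusted P = 0.00402, under 1.5-fold).

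DPYSL3 (CRMP4, chromosome 5, hg19 146770371 to 146889619, minus strand), known for bundling actin in growing neurites, had 3.41 and 3.36 RPKM (UT), 1.33 and 1.03 (Ni-E), 0.78 and 0.80 (Ni-W) and 1.13 and 1.05 (HCl3). Both UT libraries were above the other 6. Ni-W was lowest, and Ni-E overlapped HCl3. Log2 fold changes from UT were -1.58 ± 0.20 for Ni-E, -2.19 ± 0.18 for Ni-W and -1.71 ± 0.17 for HCl3. The RPKM of DPYSL2 over that of DPYSL3 went from 3.848 and 3.842 (UT) to 8.068 and 11.17 (Ni-E), 14.96 and 15.52 (Ni-W) and 14.83 and 16.66 (HCl3).

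DPYSL3 has 2 listed starts, and both are shown because the files do not tell which was in use. They are chr5:147510069-147510318 and chr5:147453693-147453942 on GRCh38.p14, minus strand.
DPYSL3 first: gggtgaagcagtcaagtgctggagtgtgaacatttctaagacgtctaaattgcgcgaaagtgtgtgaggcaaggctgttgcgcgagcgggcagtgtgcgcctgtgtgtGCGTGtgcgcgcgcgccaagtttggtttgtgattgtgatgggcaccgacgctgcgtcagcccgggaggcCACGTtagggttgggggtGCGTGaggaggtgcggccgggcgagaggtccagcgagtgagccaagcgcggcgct
DPYSL3 second: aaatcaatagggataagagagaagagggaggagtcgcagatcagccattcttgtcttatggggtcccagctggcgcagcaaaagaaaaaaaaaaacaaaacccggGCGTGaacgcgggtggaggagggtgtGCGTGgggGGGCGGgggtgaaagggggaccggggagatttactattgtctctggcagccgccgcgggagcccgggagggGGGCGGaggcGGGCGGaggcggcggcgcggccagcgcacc
The first held 1 match to ACGTG, 2 to GCGTG and 25 CG dinucleotides. The second held 2 to GCGTG, 3 to GGGCGG and 21 CG dinucleotides. In all, windows were examined for 7 of the 10 members.

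**Figure D4:**
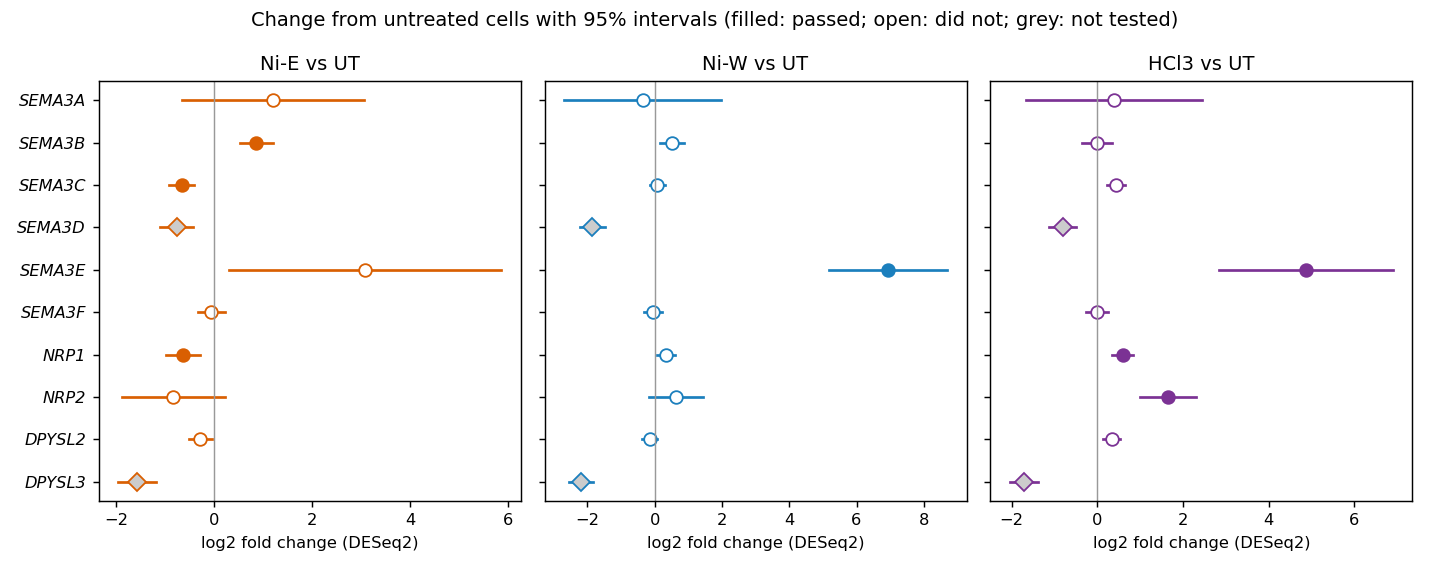
Log2 fold change of the 10 genes from UT (x axis) with 95% intervals in Ni-E, Ni-W and HCl3. Filled circles passed an adjusted P value of 0.05 and 1.5-fold, open circles did not, and grey diamonds mark SEMA3D and DPYSL3, which were chosen by their values and not tested. SEMA3E is rightmost in each panel, DPYSL3 leftmost, and SEMA3F lies close to 0.

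Counted over the 8 members other than SEMA3D and DPYSL3, 3 passed in Ni-E over UT, where 5.99% of all 14055 genes tested passed. SEMA3B was higher, and SEMA3C and NRP1 were lower. In Ni-W over UT 1 of 8 passed, SEMA3E, against 16.2% of all genes. In HCl3 over UT 3 of 8 passed, SEMA3E, NRP1 and NRP2, all higher, against 14.8%.

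Between nickel-treated groups, 4 of 8 passed in Ni-W over Ni-E, against 21.1% of all genes (12.0% higher and 9.07% lower). SEMA3C, SEMA3E, NRP1 and NRP2 were higher in Ni-W. In HCl3 over Ni-E 6 of 8 passed, against 17.7%, with SEMA3C, SEMA3E, NRP1, NRP2 and DPYSL2 higher (10.7% of all genes) and SEMA3B lower (6.98%). In HCl3 over Ni-W 2 of 8 passed, against 4.79%, with NRP2 higher (3.12% of all genes) and SEMA3E lower (1.67%). The median log2 fold change of these 8 over UT was -0.17 for Ni-E, 0.21 for Ni-W and 0.42 for HCl3, against -0.00, 0.01 and 0.01 over all genes tested. The 3 comparisons with UT share the UT libraries.

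Of 49 further genes of the pathway, 5 passed in Ni-E over UT (4 higher, 1 lower), 11 in Ni-W (all higher) and 16 in HCl3 (all higher). Their median log2 fold changes were 0.07, 0.42 and 0.57. The share of all genes that passed upward was 3.87, 11.2 and 11.1%, and the share downward 2.12, 4.97 and 3.75%. Of the 49, 47 or 48 had reads in a given comparison, and CHL1 had none in any library.

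Of 9 plexins, not all of them receptors for class 3 ligands, 1 passed in Ni-W over UT and 2 in HCl3. Of all genes, 16.2 and 14.8% passed in these comparisons. In Ni-E over UT the count was 0 by DESeq2, 0 by edgeR and 0 at an unadjusted P value under 0.05. At that unadjusted threshold by DESeq2 it was 6 in Ni-W and 6 in HCl3. The median log2 fold change of the plexins was 0.44 in Ni-W and 0.51 in HCl3, against 0.01 and 0.01 over all genes tested. With GC and length trends removed, 0 plexins passed in Ni-W and 0 in HCl3. PLXND1, the plexin that binds SEMA3E, had normalised read counts of 1937 and 1707 (UT), 2006 and 2285 (Ni-E), 3212 and 3368 (Ni-W) and 3070 and 3168 (HCl3). Ni-W and HCl3 were above both other groups. The change from UT was 0.85 ± 0.12 in Ni-W (adjusted P = 2.59e-11) and 0.77 ± 0.11 in HCl3 (adjusted P = 9.21e-11). With GC and length trends removed it was 0.57 and 0.32, under 1.5-fold. PLXNB3 rose in HCl3 by 0.75 ± 0.23 (adjusted P = 0.00582) and was at 0.26 (adjusted P = 0.358) with those trends removed. It did not pass without UT replicate 2 (adjusted P = 0.109), HCl3 replicate 1 (adjusted P = 0.303) or HCl3 replicate 2 (adjusted P = 0.187) either.

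Of 13 semaphorins of other classes, 2 passed over UT for Ni-E, 7 for Ni-W and 5 for HCl3, all of them higher. Of all genes, 3.87, 11.2 and 11.1% passed upward. DESeq2 gave an adjusted P value to 9 of the 13 in Ni-E and to all 13 in Ni-W and HCl3. By limma on log2(RPKM + 1) the counts were 1, 3 and 2. With GC and length trends removed the HCl3 count was 2, and it was 3 without HCl3 replicate 2. The Ni-E count was 1 without UT replicate 1, UT replicate 2 or Ni-E replicate 1. SEMA5A, a membrane semaphorin that binds PLXNB3, had 0 and 1 reads (UT), 1 and 1 (Ni-E), 228 and 157 (Ni-W) and 121 and 131 (HCl3). Its ratio to UT, which rests on 1 read, was 312.2 (counting interval 55.7 to 12360) in Ni-W, and adjusted P was 1.03e-07 there and 1.19e-06 in HCl3. SEMA5B, its closest relative, had no read in UT and 1 read in Ni-E, against 52 and 25 (Ni-W) and 30 and 39 (HCl3). Over UT, SEMA5B was at least 9.749-fold higher for Ni-W and at least 9.111-fold higher for HCl3, measured against 3 reads per library. By DESeq2 with the replicate suffix as a block, SEMA5B passed in neither comparison (adjusted P = 0.155 for Ni-W and 0.217 for HCl3). The low reads in UT and Ni-E and the reads in both washed-out groups were a shape that SEMA5A and SEMA5B had alike.

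SEMA6A, a membrane semaphorin of a further class, had 4 and 4 reads (UT), 7 and 4 (Ni-E), 34 and 43 (Ni-W) and 5 and 9 (HCl3). It rose in Ni-W over UT by 3.02 ± 0.85 (adjusted P = 0.00214) and was lower in HCl3 than in Ni-W (-2.52 ± 0.72, adjusted P = 0.00547). The rise did not pass without UT replicate 1 or either Ni-W library, and the HCl3 difference did not pass when any 1 of its 4 libraries was left out. SEMA4A had no read in UT and 22 reads in Ni-W over both libraries, at least 3.045-fold higher. It did not pass without UT replicate 1 (adjusted P = 0.136) or UT replicate 2 (adjusted P = 0.0850), and DESeq2 gave no adjusted P value without either Ni-W library.

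The VEGF ligands and receptors share the neuropilins as co-receptors. Of 7 listed, 3 passed in Ni-E over UT (2 higher, 1 lower), 2 in Ni-W and 6 in HCl3, all higher in both. Of all genes, 5.99, 16.2 and 14.8% passed in the same order. The Ni-E count was 1 without Ni-E replicate 1 and 5 with all 8 libraries in one fit, the Ni-W count was 1 whichever of the 4 libraries was left out, and the HCl3 count was 2 without HCl3 replicate 2. FLT1 (VEGFR1) had 6 and 6 reads (UT), 25 and 31 (Ni-E), 513 and 362 (Ni-W) and 414 and 378 (HCl3). In Ni-E the FLT1 change from UT was 2.04 ± 0.86 (adjusted P = 0.103), which did not pass by DESeq2 but did by edgeR. The FLT1 log2 fold change from UT was 5.89 ± 0.48 in Ni-W (adjusted P = 1.28e-32) and 5.76 ± 0.48 in HCl3 (adjusted P = 4.24e-31). Both of these passed in every alternative run on FLT1. PGF, a ligand of FLT1, rose in Ni-E by 2.23 ± 0.39 (adjusted P = 7.52e-07) and in HCl3 by 1.80 ± 0.38 (adjusted P = 2.89e-05). These PGF calls ended without Ni-E replicate 1 (adjusted P = 0.0638) and without HCl3 replicate 2 (adjusted P = 0.114). In Ni-W PGF was higher than in UT by 1.17 ± 0.44 (adjusted P = 0.0268), which passed in 6 of 13 alternatives and in none that left out 1 of the 4 libraries (adjusted P from 0.125 to 0.371).

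FLT4 (VEGFR3), the lymphatic receptor that pairs with NRP2, rose in HCl3 over UT by 3.31 ± 0.72 (adjusted P = 4.75e-05), though not without HCl3 replicate 2 (adjusted P = 0.0808). KDR (VEGFR2) had no read in UT and 18 in HCl3, at least 2.394-fold higher. It did not pass without UT replicate 2 (adjusted P = 0.116), and DESeq2 gave no adjusted P value without any 1 of the other libraries. The summed endothelial markers given above were also higher in Ni-W and HCl3 than in UT, with VWF at 14 reads in UT, 65 in Ni-W and 42 in HCl3. PECAM1 had no read in UT and HCl3 and 2 in Ni-W. The part of these markers in the receptor values was not tested.

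Of 16 processing enzymes, co-receptors and effectors, 2 passed in HCl3 over UT, against 14.8% of all genes. By DESeq2 the count was 0 in Ni-E and 0 in Ni-W over UT, against 4 and 4 at an unadjusted P value under 0.05 and 1 and 1 by edgeR. FURIN, the protease that cleaves semaphorin precursors, rose in HCl3 by 0.66 ± 0.11 (adjusted P = 8.59e-09). RAC1, a small GTPase that remodels actin below plexins, rose by 0.61 ± 0.11 (adjusted P = 2.01e-07). Both were under 1.5-fold with GC and length trends removed, at 0.28 and 0.51, FURIN also without UT replicate 2 (0.57) and RAC1 without UT replicate 1 (0.47). Of the other class 3 semaphorin and CRMP genes, DPYSL5 (CRMP5) passed in Ni-W and in HCl3 over UT. It had no read in UT, 39 in Ni-W, at least 5.544-fold higher, and 18 in HCl3, at least 2.399-fold higher. It did not pass in Ni-W without Ni-W replicate 2 (adjusted P = 0.233), nor in HCl3 without UT replicate 2 (adjusted P = 0.117). DESeq2 gave no adjusted P value for HCl3 without any 1 of the other libraries.

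**Figure D5:**
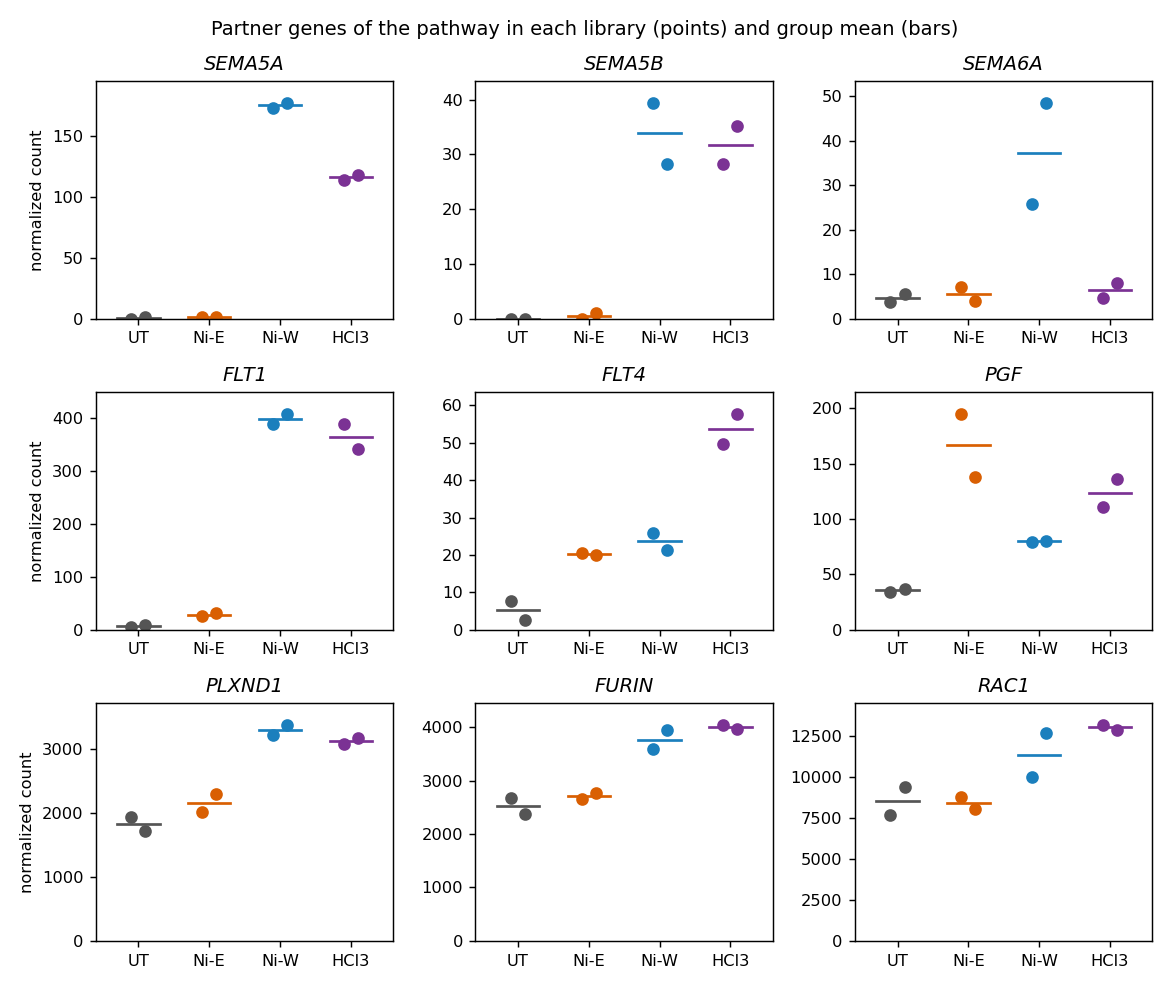
Normalised read count (y axis, a separate scale in each panel, starting at 0) of 9 listed genes of the pathway in each of the 8 libraries, with bars at the mean of each group. SEMA5A and SEMA5B are near 0 in UT and Ni-E and high in Ni-W and HCl3. FLT1 is also far lower in UT and Ni-E than in Ni-W and HCl3, with both Ni-E libraries above those of UT. SEMA6A is high in Ni-W alone, and PGF is highest in Ni-E.

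Genes with the most similar profile over the 8 libraries were found by the root mean square difference of centred log2 values over 12014 genes, for members whose group means differed by at least 2-fold. SEMA3E was closest to SLC9A9 (0.64) and SFRP1 (0.67), and NRP2 to DOCK2 (0.24) and BEX4 (0.28). NRP1 was closest to STARD13 (0.10) and BMPER (0.11), and SEMA3C to PRKD1 (0.07) and KLF7 (0.08). SEMA3D was closest to MAMLD1 (0.16) and CHRDL1 (0.18), and DPYSL3 to BDKRB1 (0.22) and CHRDL1 (0.34), so CHRDL1 was named for both. These are descriptions of 8 libraries.

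GC content moved with several of the comparisons. Across genes, the Spearman rho of log2 fold change with GC content was 0.394 in Ni-E over UT, 0.047 in Ni-W over UT and 0.281 in HCl3 over UT, and 0.557 between the 2 UT libraries themselves. The transcripts of the 4 semaphorin genes on chromosome 7 were 36.7 to 38% GC, and those of SEMA3B and SEMA3F 64.8 and 61.7%. In Ni-E over UT the low-GC members SEMA3C, SEMA3D, SEMA3A and SEMA3E were at -0.66, -0.77, 1.20 and 3.08 on the log2 scale, and the high-GC members SEMA3B and SEMA3F at 0.86 and -0.06. With the GC and length trends removed, 1 of the 3 tested members that had passed still passed in that comparison, SEMA3B.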

How the data were processed

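RNA-Seq data of 8 BEAS-2B libraries were used, 2 biological replicates per group by the study's methods. The authors used STAR 2.4 against hg19, dropped reads that aligned to several places and deposited read counts per RefSeq gene made with BioWardrobe, with RPKM values to 2 decimals. Whether counting used the strand was not given in the sources used here. Groups were taken from the labels.

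Each pair of groups was fitted on the deposited counts of its 4 libraries with DESeq2 1.42.0 in R 4.3.3 (its default size factors and filtering, the Wald test on both sides, and adjustment by Benjamini-Hochberg over all genes). A gene passed at an adjusted P value under 0.05 and at least 1.5-fold. Normalised read counts use size factors of all 8 libraries. A ratio over a group with 1 to 3 reads has a 95% counting interval, and one over a group without reads is a lower bound against 3 reads per library.

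The members and lists were chosen with earlier results of these data known. All members are described, and of each of 5 lists at most 4 genes that passed against UT are named, by size of change. Alternatives were edgeR 4.0.16, limma 3.58.1 on log2 RPKM with a pseudocount of 1 or 0.1, TMM size factors, all 8 libraries in one fit, a mean count of at least 10, the replicate suffix as a block, removal of GC and length trends, and leaving out each replicate. The crossed block was chosen after seeing the data. On simulated data with 25411 genes and 200 changed, DESeq2 recovered 197 for Ni-E and 195 for Ni-W over UT, with 0 false calls. With a GC trend planted in the simulated data it made 2455 and 2504 false calls, and 0 and 0 after removal of the trend. That trend was known in advance, so its removal does not show how fully trends in the real libraries were removed. A real trend lay between the 2 UT libraries (Spearman rho with GC content 0.557). Recovery was not split by read count, so it is not known for scarce genes such as SEMA3E in UT. The planted changes were all 2-fold or 4-fold, so recovery near 1.5-fold was not tested. The number of false calls in the real libraries was not tested either.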

Additional observations from a re-analysis of the deposited data

Results flagged for a closer look

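The groups were compared directly, because a change that passes against UT in one group and not in another does not show that the groups differ. Each pair of groups had a fit of its own, and 12 such differences among the 8 tested members passed by DESeq2 (adjusted P value under 0.05 and at least 1.5-fold). Values are log2 fold changes.

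In Ni-W over Ni-E they were 3.86 for SEMA3E, 1.44 for NRP2, 0.96 for NRP1 and 0.73 for SEMA3C. All 4 genes were higher in both Ni-W libraries than in both Ni-E libraries. In HCl3 over Ni-E they were 2.48 for NRP2, 1.79 for SEMA3E, 1.22 for NRP1, 1.08 for SEMA3C, 0.61 for DPYSL2 and -0.88 for SEMA3B. In HCl3 over Ni-W they were 1.03 for NRP2 and -2.07 for SEMA3E, so these libraries, which carry the same treatment text, differed in a receptor and in a ligand. The NRP2 difference between HCl3 and Ni-W did not pass without Ni-W replicate 2 (adjusted P = 0.0889), HCl3 replicate 1 (adjusted P = 0.115) or HCl3 replicate 2 (adjusted P = 0.329), while that of SEMA3E passed in all 14 alternatives.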

How the results depend on the processing

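Differences that passed under each alternative run on them were SEMA3E in Ni-W over UT, in Ni-W over Ni-E and in HCl3 over Ni-W, SEMA3B, SEMA3C, NRP1 and NRP2 in HCl3 over Ni-E, and NRP1 in Ni-W over Ni-E. Over the 8 tested members, 539 alternative values kept direction and side of the threshold, 46 fell below it, 7 passed newly and 27 changed sign. The cause of these changes was not tested. Those that changed sign were all of values not called. Removing GC and length trends moved the median of all expressed genes in Ni-W over UT by -0.10 on the log2 scale. It moved by -0.09 in HCl3 over UT, -0.07 in HCl3 over Ni-E and -0.06 in Ni-W over Ni-E. In Ni-E over UT and HCl3 over Ni-W it moved by -0.0006 and -0.0003. The part of these shifts in calls that ended close to 1.5-fold was not tested.

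Of the 8 tested members, 3 passed in Ni-E over UT, and 1 by limma on log2(RPKM + 1). With GC and length trends removed 1 passed, and 1 with the replicate block added to that removal. In HCl3 over UT 3 passed, and 1 by limma on log2(RPKM + 1). In Ni-W over Ni-E 4 passed, and 2 with the replicate block and those trends removed. In HCl3 over Ni-W 2 passed, and 1 by limma with either pseudocount and 1 with the replicate block. Leaving out 1 replicate gave 1 to 3 members in Ni-E over UT (1 without Ni-E replicate 2), 1 to 3 in HCl3 over UT (1 without HCl3 replicate 2), 1 to 2 in Ni-W over UT (2 without UT replicate 1 or Ni-W replicate 2, against 1), 3 to 4 in Ni-W over Ni-E, 1 to 2 in HCl3 over Ni-W (1 without either HCl3 replicate) and 4 to 6 in HCl3 over Ni-E.

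Of the 49 listed pathway genes, 5 passed in Ni-E over UT, and 9 by edgeR and 10 with all 8 libraries in one fit. In Ni-W over UT 11 passed, 5 by limma on log2(RPKM + 1), 7 with the replicate block and 5 with the block plus removal of GC and length trends. In HCl3 over UT 16 passed, 9 by limma on log2(RPKM + 1), 8 with the trends removed and 5 with the block as well. In Ni-W over Ni-E 16 passed, 7 by limma on log2(RPKM + 1) and 10 with block and trends. In HCl3 over Ni-W 3 passed, 6 by edgeR, 0 by limma on log2(RPKM + 1) and 1 on log2(RPKM + 0.1). In HCl3 over Ni-E 12 passed, and 5 by limma on log2(RPKM + 1). Leaving out 1 replicate gave 2 to 6 listed genes in Ni-E over UT (2 without Ni-E replicate 1), 7 to 10 in Ni-W over UT (7 without Ni-W replicate 2), 8 to 14 in HCl3 over UT (8 without HCl3 replicate 2), 9 to 16 in Ni-W over Ni-E (9 without Ni-W replicate 2), 0 to 2 in HCl3 over Ni-W (0 without HCl3 replicate 2, 1 without HCl3 replicate 1) and 7 to 12 in HCl3 over Ni-E (7 without HCl3 replicate 1).

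Log2 fold changes that changed sign were as follows. SEMA3B in HCl3 over UT was 0.0533 and 0.0617 by limma with pseudocounts of 1 and 0.1, 0.0009 with the mean count filter, and -0.1808 to 0.1585 without 1 replicate. SEMA3C in Ni-W over UT was -0.0082 with GC and length trends removed and -0.0079 with the replicate block as well. SEMA3F in HCl3 over UT was 0.0484 and 0.0540 by limma and 0.0027 with the filter. SEMA3F in Ni-W over Ni-E was 0.0029 with all 8 libraries and 0.0015 with the filter. With trends removed, and with the replicate block added, SEMA3F was -0.1108 and -0.1105 in HCl3 over Ni-W and -0.1434 and -0.1431 in HCl3 over Ni-E, and DPYSL2 was -0.0262 and -0.0259 in Ni-W over Ni-E. Without 1 replicate, SEMA3A ran from -0.7423 to 0.1943 in Ni-W over UT and from -0.1480 to 0.9600 in HCl3 over UT. SEMA3F ran from -0.1278 to 0.0105 in Ni-E over UT, -0.1428 to 0.0524 in Ni-W over UT, -0.0728 to 0.0681 in HCl3 over UT, -0.0983 to 0.0892 in Ni-W over Ni-E, and -0.0477 to 0.1456 in HCl3 over Ni-W.

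The suffix of the repeat library does not mark a shared culture or day in the labels, so replicates were not treated as paired. Deviations of same-suffix libraries had an r of -0.244 in Ni-E with UT, -0.191 in HCl3 with UT, 0.404 in Ni-W with UT, -0.0923 in Ni-W with Ni-E, -0.102 in HCl3 with Ni-W and 0.0503 in HCl3 with Ni-E. The replicate block alone gave 2, 1, 3, 3, 1 and 5 members in Ni-E, Ni-W and HCl3 over UT, Ni-W over Ni-E, HCl3 over Ni-W and HCl3 over Ni-E. A block with the pairs crossed gave 3, 3 and 2 members in Ni-E over UT, HCl3 over UT and HCl3 over Ni-W. Depth limits SEMA3A, with at most 19 reads in a library, and SEMA3E in UT, with 3 reads in all.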
